A study of Homo sapiens with 12 samples.

Results

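The TNFα response of *NFKB1* S80A cells was taken as the comparison of 3 samples treated with 10 ng/ml TNFα for 3 h with 3 untreated samples of the same cells, which are 6 of the 12 samples of the series, and all 14383 genes that passed a filter on low counts were compared. The cells are HEK293T, a human embryonic kidney line, in which CRISPR/Cas9 editing with a single-stranded oligonucleotide replaced serine 80 of the NF-κB subunit p50 with alanine, and which were isolated as single-cell clones after puromycin selection. Untreated and treated cells both carried the edit, and the labels do not tell which clone a sample came from. The other 6 samples, 3 untreated and 3 treated, are of the WT HEK293T cells. All 4 groups hold 3 samples described as independently generated, and polyadenylated RNA was sequenced as single-end reads and counted per gene.

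TNFα is a cytokine that binds TNF receptor 1 and, through TRAF and RIPK1 adaptors and linear ubiquitin chains, activates the IκB kinase complex. This kinase phosphorylates IκBα, which is degraded, and NF-κB dimers such as p50:RELA enter the nucleus and bind κB sites. Among the first genes they switch on are chemokines, cytokines and the inhibitors of the pathway itself, so the response contains its own brakes. *NFKB1* encodes p105, the precursor of p50, the subunit that carries the edited residue.

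The labelled cell line was checked against marker genes. Of 15 genes typical of HEK293 cells 14 were tested, and *VIM* and *CDH2* were among the abundant ones, with at least 10059 and 2254 counts in each S80A sample, whereas *PAX8* had 0 counts in all of them. The kidney and neural genes of the list were mixed. *PAX2*, *LHX1*, *NEFM* and *NEFH* had at most 50, 33, 6 and 11 counts, and *NEFL*, *SALL1* and *PODXL* at least 650, 455 and 916. The leukocyte genes *PTPRC*, *CD3E*, *CD3D* and *MS4A1* had 0 counts in each S80A sample, and the endothelial genes *PECAM1* and *CDH5* at most 1. The summed level of the 3 tested fibroblast genes was 7.85 to 9.22 CPM (counts scaled to a common total) in untreated and 7.12 to 9.29 CPM in treated samples. For the 2 tested leukocyte genes it was 3.61 to 4.67 CPM and 3.75 to 4.34 CPM, and for the only tested endothelial gene 1.36 to 2.00 CPM and 1.33 to 1.91 CPM, so the ranges of the groups overlapped for each of these lists.

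Untreated sample 2 stood apart from its replicates. The 6 S80A samples held 15624878 to 20889577 reads counted on genes, with 15847479 in this sample, which also had the fewest detected genes of the 6 (17698, against 17861 to 18491). The first principal component of the 6 samples, with 43.8% of the variance, placed it at 39.3, while the other 5 lay between -24.2 and 5.60. Its log2 difference from the mean of untreated samples 1 and 3 had a standard deviation of 0.410 over the 14383 genes, against 0.224 to 0.358 when the other 11 samples of the series were treated in the same way. Among the 10652 genes with a mean of at least 100 normalised counts (counts scaled to a common library size), 82 genes were lower by more than 1 on the log2 scale in this sample and 4 were higher. Its deviation followed transcript length, with a Spearman rho of -0.48 across the 9889 of these genes with an annotated transcript, which share 1 library and are not independent. Over the same genes its rho with the GC content of the transcript was -0.42, and the part of each trait was not tested. In the tenth of genes with the shortest transcripts the median deviation was 0.26, and in the tenth with the longest it was -0.34. Treated sample 3 deviated in the same direction by length, with a rho of -0.61 and medians of 0.20 and -0.26. Its rho with GC content was 0.016, so it did not share that trend of untreated sample 2. The plot of deviation by transcript length shows these slopes opposite to those of the other 4 samples. Each deviation is measured from the mean of the other 2 samples of the group. A fall with length in 1 sample therefore forces a rise, on balance, in the other 2. The opposite slopes are thus not a separate property of those 4 samples.

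TNFα changed 181 genes in S80A cells at an adjusted p-value under 0.05, which is 1.26% of the genes tested. Of these, 139 (0.966%) were increased and 42 (0.292%) were reduced. The increased genes spanned a wide range, since 61 rose by at least 1 on the log2 scale and 78 by less, while 39 of the 42 reduced genes fell by less than 1. In each of the 181 genes the 3 treated samples lay outside the range of the 3 untreated samples, as they did for 14.4% of all genes tested (6.81% above and 7.61% below). In bulk RNA, a change in all cells and a change in part of the cells cannot be told apart. The median log2 fold change over all genes tested was -0.0019, which the scaling sets near 0, so a shift of the whole table could not be seen. Without untreated sample 2 the test called 162 genes (1.11% of those tested), of which 117 were increased and 45 reduced, and 142 of the 181 genes were among them.

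Other samples moved the counts further. Without treated sample 1 the test called 98 genes (88 increased and 10 reduced), and without untreated sample 3 it called 116 (96 increased and 20 reduced). Without treated sample 2 or 3 the reduced genes numbered 19 and 17. A fit to the 6 S80A samples alone, with fewer degrees of freedom, called 71 genes, 65 increased and 6 reduced.

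**Figure D1:**
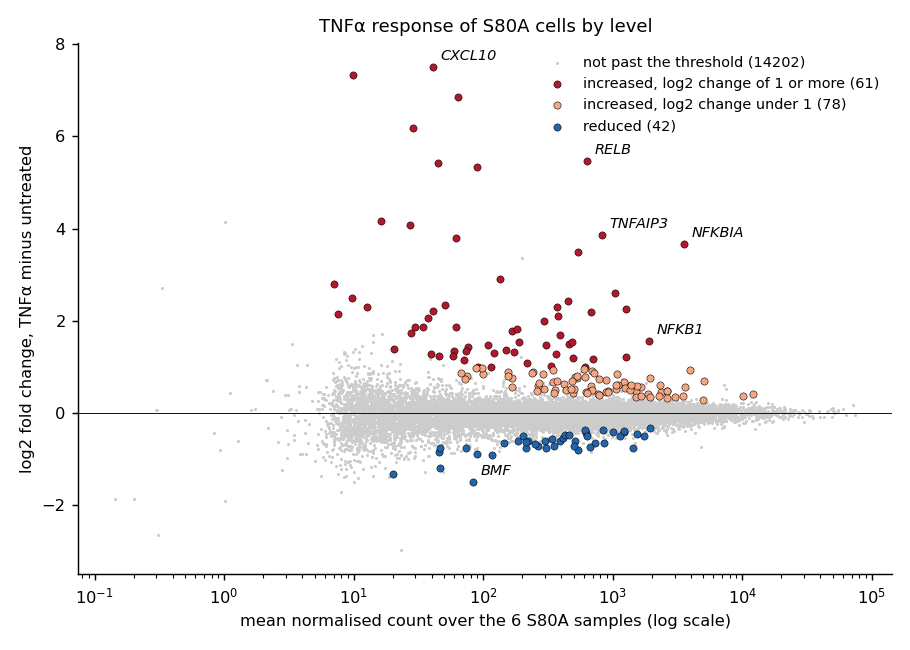
Log2 fold change of each tested gene in S80A cells (y axis, treated minus untreated) against its mean normalised count over the 6 S80A samples (x axis, log scale). The 61 genes with the largest rises reach a log2 value of 7.51, the 78 smaller rises lie under 1, and the 42 reduced genes reach -1.50.

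The counts for gene lists here and below stand beside 0.966% of all tested genes increased and 0.292% reduced. The lists were chosen with earlier results of these data known. Of the 5 subunits of NF-κB 4 were increased. *RELB*, a partner of p52 in the non-canonical pathway that lies on chromosome 19 (45001461 to 45038192 in GRCh38), had 27.8, 26.4 and 29.5 normalised counts in the 3 untreated samples and 1395, 1117 and 1222 in the 3 treated ones. Its log2 fold change was 5.47 (standard error 0.14, edgeR adjusted p = 6.55e-12), and the spread within each group was small beside it. *NFKB2*, which encodes the precursor of p52, went from 474, 412 and 428 to 2249, 2006 and 2009, a log2 fold change of 2.25. The edited gene *NFKB1* (chromosome 4, 102501330 to 102617302) had 1039, 863 and 993 normalised counts in untreated and 3198, 2803 and 2545 in treated samples (log2 1.56, standard error 0.10, edgeR adjusted p = 3.19e-07). The transcript count does not check the edit, which changes the encoded protein. Whether the edit alters the amount of this mRNA was not tested. *RELA*, the main activating subunit, was already abundant, with 1454, 1352 and 1509.7 against 1784, 1945 and 1825 normalised counts. Its log2 fold change of 0.36 (edgeR adjusted p = 0.0270) was small, with 0.32 to 0.40 in the 12 fits that left out 1 sample, and lost its call in 10 of them, including the one without untreated sample 2 (0.0789). *REL*, with 164, 43.2 and 145 normalised counts in untreated and 392, 306 and 133 in treated samples, did not pass (log2 1.21, edgeR adjusted p = 0.275). Its lowest values lay in untreated sample 2 and treated sample 3. Whether this is tied to the trend with transcript length in these samples was not tested.

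The inhibitors rose as well. *NFKBIA*, the gene of IκBα, which holds NF-κB in the cytoplasm, had 540.3, 551 and 475 normalised counts before and 7156, 6199.8 and 6471 after TNFα, the highest level reached by any of the named genes with a log2 fold change over 1 (3.66, standard error 0.10, edgeR adjusted p = 6.55e-12). The nuclear IκB proteins *BCL3* and *NFKBIZ* rose by 2.06 and 1.33, and *NFKBIE*, the gene of IκBε, by 0.59 (edgeR adjusted p = 0.0256, and 0.0517 without untreated sample 2). *NFKBIB* (log2 0.30) and *NFKBID* (0.44) did not pass. Thus 4 of the 6 genes were increased, with a median log2 fold change of 0.96.

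Of 14 tested genes that edit or read ubiquitin chains 5 were increased and 9 did not pass, and the same number of increased genes passed without untreated sample 2. *TNFAIP3*, the gene of A20, which trims the ubiquitin chains of the TNF receptor complex, stood out with 93.6, 103 and 122 normalised counts in untreated and 1780.2, 1462 and 1408 in treated samples (log2 3.86, standard error 0.15, edgeR adjusted p = 4.76e-10). Its partner *TNIP1*, which targets A20 to its substrates, had 1283, 1156 and 1249 and 1921, 1819 and 1822, a log2 fold change of 0.59 (edgeR adjusted p = 0.000771). The deubiquitinase *CYLD* had 709, 796 and 779.6 and 1106, 1090.1 and 994, a log2 fold change of 0.48 (edgeR adjusted p = 0.00501). The smaller rises of *TNIP1* and *CYLD* started from higher counts than the rise of *TNFAIP3*. The ubiquitin-binding receptors *OPTN* and *SQSTM1* rose by 1.21 and 0.57. The list's median was 0.14.

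Between the TNF receptor and the IκB kinase, 6 of 28 genes were increased, 22 did not pass and the median was 0.071. *TIFA*, an adaptor of TRAF6, rose by 1.55, and the kinase *MAP3K8*, which links the pathway to ERK, by 1.49. *IRAK2*, a kinase-like adaptor of the interleukin-1 receptor, rose by 1.09, and *BIRC3*, the gene of the ubiquitin ligase cIAP2, by 2.30 from only 7.41, 2.40 and 2.60 normalised counts to 26.2, 15.3 and 21.5 (edgeR adjusted p = 0.0220, and 0.0610 without untreated sample 2). 2 rises under 1 concerned abundant mRNAs. *TRAF3*, a restraint on the non-canonical pathway, had 1544, 1253 and 1521 normalised counts in untreated and 2524, 2486 and 2302 in treated samples (log2 0.76, standard error 0.08, edgeR adjusted p = 0.00011). *IKBKB*, which encodes IKKβ, had 770.1, 702 and 783 and 1139, 984 and 976 (log2 0.46, edgeR adjusted p = 0.00833).

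Of 15 chemokine genes listed 8 were tested, 6 were increased and 2 did not pass, and the median log2 fold change was 3.95. Genes near 0 counts in untreated cells, such as *CXCL10* and *CXCL1*, could pass the count filter only through treated samples. The untested genes of the list had at most 8 counts in any S80A sample. The share of increased genes and the median are thus partly set by the filter. *CXCL10*, which attracts T cells, had 0, 0 and 0.868 normalised counts in untreated and 106, 59.0 and 79.4 in treated samples. It had 1 read in all untreated samples against 241 in the treated ones, a ratio of counts of 256 (95% counting interval 45.5 to 10147). The neutrophil attractant *CXCL1* had 1.85, 1.20 and 0 and 168, 120.3 and 93.4, a ratio of 133 (45.1 to 646). These intervals cover counting error only, and the fitted log2 fold changes of both genes (7.51 and 6.86) depend on the prior count of the fit. *IL8* (current symbol *CXCL8*) had 6.49, 2.40 and 3.47 normalised counts before and 221, 134 and 172 after TNFα (log2 5.34, standard error 0.34, edgeR adjusted p = 3.19e-07). *CXCL2* rose by 4.09 and *CXCL3* by 3.81, and *CXCL6* by 2.80 from 0, 3.60 and 1.74 to 11.8, 16.5 and 8.58 normalised counts (edgeR adjusted p = 0.0321). Reads may be shared between the close paralogs *CXCL1*, *CXCL2* and *CXCL3*, and the counting options that decide this are not given in the sources used here. *CXCL12* (log2 -0.47) and *CXCL16* (0.01) did not pass.

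Of 22 cytokine genes listed 8 were tested, and 3 of these were increased. The count filter acts on this list in the same way. *TNF* itself had 1.85, 0 and 0 normalised counts in untreated and 56.1, 51.9 and 61.2 in treated samples, or 2 reads against 163, a ratio of 86.5 (23.6 to 720.5). *IL32*, a pro-inflammatory cytokine, went from 0.927, 0 and 3.47 to 33.5, 27.1 and 33.3 (log2 4.17, edgeR adjusted p = 0.00011), and *CSF1*, the macrophage growth factor, from 115, 81.7 and 90.3 to 363, 224 and 251 (log2 1.55, edgeR adjusted p = 0.000473). All treated values lay above the untreated values, and treated sample 1 was the highest of its group for *IL32*, *CSF1*, *CXCL10* and *CXCL1*. Among 18 cytokine and TNF family receptors 3 were increased, namely *TNFRSF9* (4-1BB, log2 5.42, 2.78, 1.20 and 1.74 to 138, 61.3 and 64.4 normalised counts), the maturation marker *CD83* (2.20) and the interferon-γ receptor chain *IFNGR2* (0.35).

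Treated sample 1 had the strongest response for many genes. It was the highest of the 3 treated samples for 51 of the 61 genes with rises of at least 1 and for 39 of the 78 with smaller rises, against 37.1% of all genes tested. Among the 15 largest rises, WT treated sample 1 was likewise the highest of the 3 WT treated samples, except for *VCAM1*, *RELB* and *IL32*. Why the samples numbered 1 were often the highest was not tested.

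**Figure D2:**
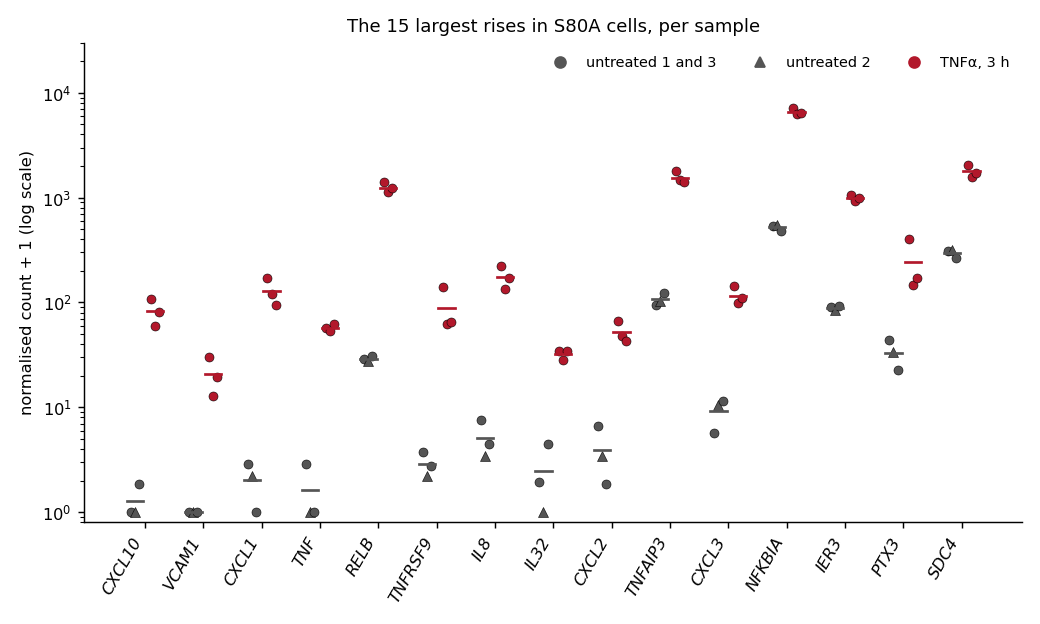
Normalised counts plus 1 (y axis, log scale) of the 15 genes with the largest rises in each S80A sample, with lines at the group means and untreated sample 2 as a triangle. The treated samples lie above the untreated samples for each gene, as the rule that chose the genes requires, and for *VCAM1* all 3 untreated samples are at 0.

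Of 23 AP-1 and immediate early genes 7 were increased and 16 did not pass, and 7 passed without untreated sample 2. *IER3*, an early response gene, had 89.0, 84.1 and 92.0 normalised counts in untreated and 1069, 919 and 997 in treated samples (log2 3.49, standard error 0.11, edgeR adjusted p = 4.96e-11). *JUNB* rose by 2.43, and the AP-1 subunits *JUN* and *JUND* by less than 1. *JUN* had 3618, 3883 and 4053 and 5929, 6306 and 6502 (log2 0.70, edgeR adjusted p = 0.000473), and *JUND* rose by 0.67. *ATF3*, *KLF10* and *MAFF* rose by 0.91, 0.78 and 1.29. The 3 increased of 14 phosphatases and other brakes of MAP kinases were *DUSP8* (1.36), *DUSP1* (0.75) and *DUSP16* (0.58). *DUSP1* had 389, 394 and 397 normalised counts in untreated and 703, 641 and 646 in treated samples. It is 1 of the 8 small rises named for their lowest p-values, a choice that favours tight groups.

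Genes of mRNA decay formed a group of mostly small responses, with 7 of 20 increased, 1 reduced and a median of 0.25. *ZFP36L1*, which binds AU-rich elements, rose by 1.01, *BTG2*, which recruits the CCR4-NOT deadenylase, by 0.97, and *SAMD4A* by 0.87. *CCRN4L*, *PATL1*, *RBM38* and *RQCD1* rose by 0.67, 0.62, 0.56 and 0.34. *TOB1*, an antiproliferative relative of *BTG2*, was the reduced member, with 554, 568 and 482 normalised counts in untreated and 373, 386 and 399 in treated samples (log2 -0.47, edgeR adjusted p = 0.0121). With a correction for transcript length and GC content, which was added after the data were seen and called 2.26% of the genes it tested, 5 of the list were increased and 1 was reduced. The corrected fit holds only genes with an annotated transcript. Of the 139 increased genes 134 had a value in it and 132 passed, so a lower count need not mean that calls were lost.

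Cell surface and matrix genes included 8 increased of 21, with 13 that did not pass and a median of 0.32. *VCAM1*, an adhesion molecule for leukocytes, had 0 reads in each untreated sample and 28.9, 11.8 and 18.2 normalised counts in the treated ones, at least 20.9-fold higher against a floor of 3 counts over the untreated group. *SDC4*, a heparan sulphate proteoglycan, had 306, 314 and 262 normalised counts in untreated and 2062, 1571 and 1707 in treated samples (log2 2.60, standard error 0.12, edgeR adjusted p = 3.16e-09). The pattern recognition protein *PTX3* went from 42.6, 32.4 and 21.7 to 401, 146 and 172 (log2 2.91), with treated sample 1 more than 2 times as high as each of the other treated samples. The plasminogen activators *PLAU* and *PLAT* rose by 2.34 and 1.21, and the matrix protein *TNC* by 1.87. *TFPI2* and *PDPN* rose by 0.87 and 0.60.

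Of 15 tested genes of antigen presentation 2 were increased, both with roles in peptide loading. *TAPBP*, the gene of tapasin, rose by 1.49 (edgeR adjusted p = 4.98e-05), and the peptide transporter *TAP1* went from 294, 244 and 308 to 462, 487 and 421 normalised counts (log2 0.69, edgeR adjusted p = 0.00448). The other 13 did not pass, among them *HLA-B* (log2 0.26, edgeR adjusted p = 0.145) and *B2M* (0.18, 0.660). *IRF1*, which drives interferon-responsive genes, rose from 122, 118 and 112 to 549.7, 413 and 442 normalised counts (log2 2.00, edgeR adjusted p = 8.26e-07). It was the only increased gene of 23 interferon factors and interferon-stimulated genes, and *IFIT1* was reduced, from 55.6, 55.3 and 63.4 to 31.6, 34.2 and 37.6 (log2 -0.76, edgeR adjusted p = 0.0256).

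Among 23 genes of cell death and survival 3 were increased and 1 was reduced. *GADD45B*, a stress-induced regulator of p38 and JNK signalling, rose by 1.69, *DRAM1*, a lysosomal membrane protein, by 1.44, and *BIRC3* as given above. *BMF*, a pro-apoptotic BH3-only protein on chromosome 15 (40087890 to 40108892), gave the largest fall of all genes called. It had 154, 102 and 115 normalised counts in untreated and 47.0, 43.7 and 40.8 in treated samples (log2 -1.50, standard error 0.18, edgeR adjusted p = 0.00027), and -1.61 without untreated sample 2.

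The 78 small rises started from higher counts than the larger ones. Their median log2 fold change was 0.58, a rise of 49.9%, and they ranged from 0.29 to 0.98, with 27 under 0.5. Their median level in untreated cells was 567 normalised counts, close to the 502 of all genes tested, whereas the 61 larger rises started from a median of 57.6. The median standard error was 0.10 for the small and 0.20 for the larger rises. These differences follow at least in part from the selection. A change under 1 passes the threshold only with a small standard error, which low counts rarely give. The larger rises include genes with 0 or few untreated counts, such as *VCAM1*. Levels here are counts per gene and not per transcript length.

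Small rises with low p-values were found for genes of different roles. *PPP1R15A* (GADD34), which directs protein phosphatase 1 to the translation factor eIF2α, had 512, 524 and 482 normalised counts in untreated and 1009, 865 and 892 in treated samples (log2 0.87, edgeR adjusted p = 3.84e-05). Its paralog *PPP1R15B* rose by 0.48, and they were the 2 increased of 22 tested genes of the integrated stress and unfolded protein responses. The homeobox gene *SIX5* had 375, 352 and 418 and 677, 654 and 689 (log2 0.82, edgeR adjusted p = 0.000119). *NFATC1*, a calcium-regulated transcription factor, had 171, 161 and 176 and 357, 286 and 305 (log2 0.90, edgeR adjusted p = 0.000246). In each of these 3 genes the treated samples lay well above the untreated samples, as their choice by low p-values and no overlap favours.

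Very abundant mRNAs reached the threshold at still smaller changes. *JAK1*, a kinase of cytokine receptors, had 2646, 2621 and 2762 normalised counts in untreated and 3472, 3590.1 and 3222 in treated samples (log2 0.36, edgeR adjusted p = 0.0116). *VIM*, the intermediate filament vimentin, had 9939.7, 12084 and 9168 and 14194, 13404 and 14113 (log2 0.42, edgeR adjusted p = 0.0319), with untreated sample 2 the highest of the untreated samples, and its adjusted p by the same edgeR test was 0.000459 without that sample. *ABCF1*, the smallest rise of all, had 4474, 4562 and 4310.2 and 5371, 5425 and 5511 (log2 0.29, edgeR adjusted p = 0.0452). *JAK1* and *ABCF1* lay outside the naming rule and were picked after their values were seen. Among C2H2 zinc finger regulators, 5 of 15 were increased and 10 did not pass, with rises of 0.69 for *ZHX2*, 0.61 for *ZBTB10*, 0.60 for *ZNF3*, 0.47 for *ZBTB5* and 1.38 for the lymphoid factor *IKZF3*.

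The small rises did not always keep their call when a sample was left out. In the 12 such fits 36 to 71 of the 78 passed, and their median was 0.55 to 0.61. All 78 stayed higher after TNFα, which was set beforehand, since their treated and untreated samples do not overlap. Leaving out a WT sample hardly changes the fold change in S80A cells. Untreated sample 2 was the lowest untreated sample for 46 of the 78 (40.9% of all genes tested), and its median deviation in them was -0.13, against -0.00017 over all genes. Without it 55 of the 78 small rises kept an adjusted p-value under 0.05, as did 57 of the 61 larger ones and 30 of the 42 falls. Without treated sample 1, 48 small changes of either direction were called in all, without treated sample 2 or 3 there were 65 and 68, and without untreated sample 3 there were 62. Under the correction for transcript length and GC content, which 75 of the small rises had the annotation for, 73 passed.

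**Figure D3:**
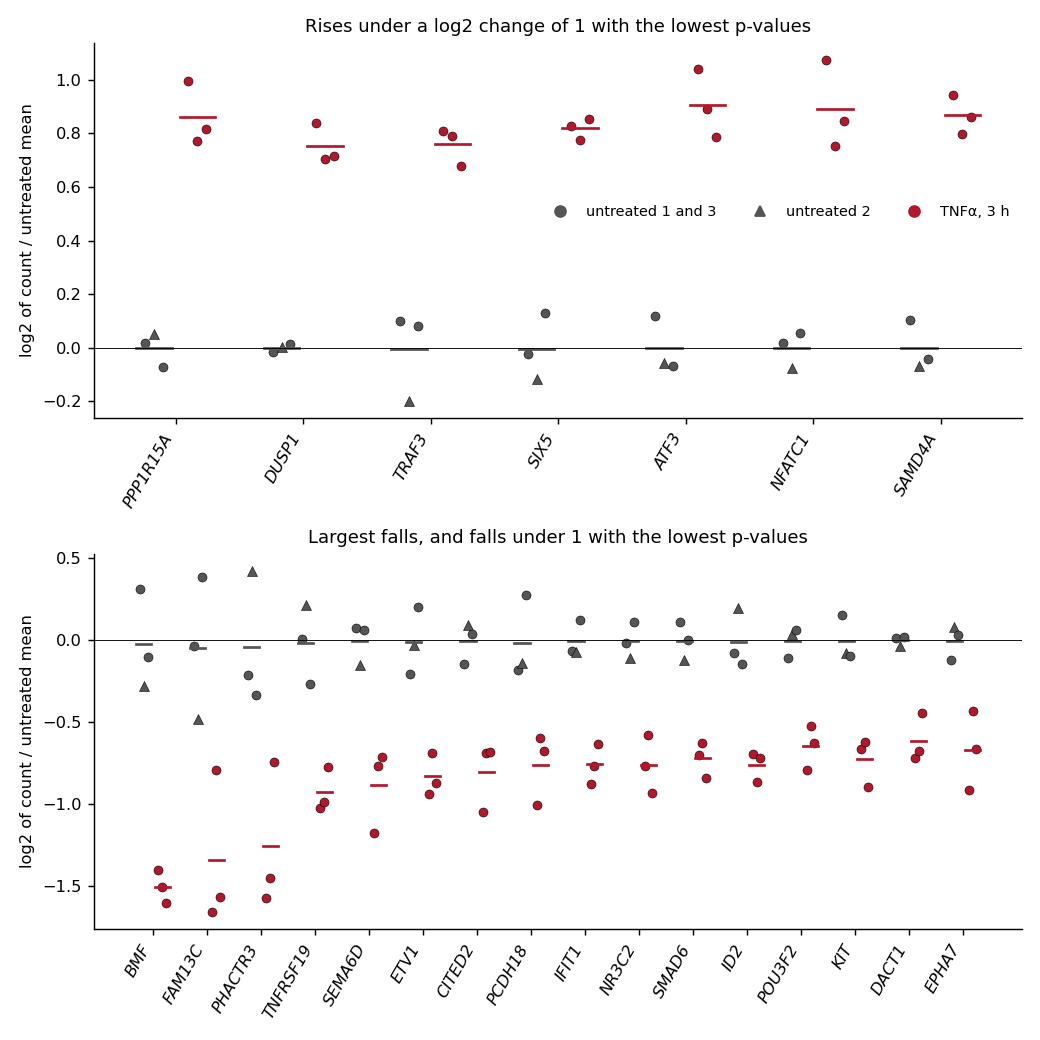
Log2 ratio of each S80A sample to the untreated mean (y axis) for 7 of the 8 rises under 1 with the lowest p-values (upper panel) and for the 16 named falls (lower panel), with lines at the group means and untreated sample 2 as a triangle. The treated samples lie outside the untreated range for each gene, as the rule that chose the genes requires, and the untreated values spread most for *FAM13C* and *PHACTR3*.

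The reduced genes included regulators of development and of BMP and TGFβ signalling. Since these lists were chosen with earlier results of these data known, their counts are no independent sign of a theme. Of 24 tested genes of BMP and TGFβ feedback 4 were reduced and 20 did not pass, with a median of -0.28. *SMAD6*, an inhibitory SMAD, had 476, 406 and 442 normalised counts in untreated and 272, 287 and 247 in treated samples (log2 -0.72, standard error 0.10, edgeR adjusted p = 0.000815). *ID2*, an inhibitor of helix-loop-helix factors and a classical BMP target (chromosome 2, 8678845 to 8684461), had 1697, 2053 and 1623 and 1108, 984 and 1089 (log2 -0.75, edgeR adjusted p = 0.000948). The untreated and treated ranges of both genes were well apart, as their choice by low p-values and no overlap favours. *ID3*, a relative of *ID2*, fell by 0.44 on the log2 scale (edgeR adjusted p = 0.0369, and 0.0816 without untreated sample 2). *DACT1*, a modulator of Wnt and TGFβ signalling, fell by 0.61 (adjusted p = 0.00754 by the same edgeR test). *ID1* (log2 -0.39) and *BAMBI* (-0.44) did not pass. Without untreated sample 2, 3 of the list were reduced and 1 was increased.

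Of 35 developmental regulators 7 were reduced and 5 were increased, beside 0.292% and 0.966% of all tested genes. The same numbers passed without untreated sample 2. *POU3F2*, a neural POU factor, had 823, 912 and 926 normalised counts in untreated and 514, 618 and 575 in treated samples (log2 -0.64, edgeR adjusted p = 0.00141). *ISL1* fell by 0.63 on the log2 scale, *TFAP2A* by 0.50, *HEY2* by 0.50, *ZIC2* by 0.49 and *NR2F2* by 0.32. *KIT*, a receptor tyrosine kinase and not a transcription factor, had 369.8, 315 and 309.9 and 209.8, 216 and 178 (log2 -0.72, edgeR adjusted p = 0.00524). The increased members were the homeobox genes *MSX1* (1.18), *SIX5* and *SIX4* (0.50), the helix-loop-helix factor *HAND1* (1.02) and *TFAP2C* (0.81), so the AP-2 genes *TFAP2A* and *TFAP2C* moved in opposite directions. The coactivator partner *CITED2*, with 621, 732 and 707 against 332, 426 and 429 normalised counts, fell by 0.80 on the log2 scale, and the mineralocorticoid receptor gene *NR3C2* by 0.75.

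Axon guidance genes moved in both directions. The ephrin ligand *EFNA1* went from 133, 115 and 126 to 764, 536 and 559 normalised counts (log2 2.31, standard error 0.16, edgeR adjusted p = 7.17e-07), whereas the ephrin receptor *EPHA7* went from 960.1, 1104 and 1069.5 to 555, 774 and 661 (log2 -0.66, edgeR adjusted p = 0.00818). *SEMA6D* and the semaphorin receptor *NRP1* fell by 0.88 and 0.61 on the log2 scale. In all 1 of 33 genes was increased and 3 were reduced, beside 0.966% and 0.292% of all tested genes. With the correction for transcript length and GC content 8 were reduced, and the median deviation of untreated sample 2 in this list was -0.24.

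Several of the larger falls lay near the threshold. *FAM13C* had 27.8, 20.4 and 37.3 normalised counts in untreated and 9.04, 16.5 and 9.66 in treated samples (log2 -1.33, edgeR adjusted p = 0.0483), and *PHACTR3* had 55.6, 86.5 and 51.2 and 21.7, 23.6 and 38.6 (log2 -1.19, edgeR adjusted p = 0.0403). Untreated sample 2 was the lowest untreated sample for the first gene and the highest for the second. *TNFRSF19*, *ETV1*, an ETS factor, and the protocadherin *PCDH18* fell by 0.92, 0.83 and 0.76 on the log2 scale. Of the 12 fits that left out 1 sample, 10 each ended the call of *FAM13C*, *ETV1* and *PCDH18*, 9 that of *PHACTR3*, 6 that of *TNFRSF19* and 4 that of *IFIT1*. In 6 of these for *FAM13C*, *PCDH18* and *PHACTR3*, 5 for *ETV1* and 1 for *TNFRSF19* a WT sample was left out, which changes the estimate of the spread and the number of genes tested but hardly the fold change in S80A cells. Over the 12 fits the log2 fold change was -1.62 to -1.07 for *FAM13C*, -1.49 to -0.94 for *PHACTR3*, -0.93 to -0.71 for *ETV1* and -0.85 to -0.59 for *PCDH18*. For *SEMA6D* it did so in 2 fits (without treated sample 1 or untreated sample 3), for *DACT1* in 2 (without treated sample 1 or 2) and for *EPHA7* in 1 (without treated sample 1). Without untreated sample 2, *PHACTR3*, *TNFRSF19* and *ETV1* had edgeR adjusted p-values of 0.120, 0.0942 and 0.0847.

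Other programmes held few or no called genes. Of 14 clock genes *DBP*, a clock output factor, was the only one called and fell by 0.75 on the log2 scale, and of 15 genes of the cholesterol list only *IDH1*, an NADPH-producing dehydrogenase, was called and fell by 0.40. By edgeR's test 0 genes passed among 14 heat shock genes, 22 of hypoxia and glycolysis, 24 of the cell cycle, 24 ribosomal protein genes and 13 replication-dependent histone genes. Over all genes tested 1.26% were called, so lists of this size often hold few or no called genes whatever their function. In these 5 lists an unadjusted p-value under 0.05 was found for 0, 5, 1, 0 and 1 genes, and DESeq2 called 0, 1, 0, 0 and 0. Their median log2 fold changes were 0.055, -0.094, 0.024, -0.0069 and -0.015. Of these 5 lists the ribosomal protein genes deviated most in untreated sample 2, by a median of 0.28. Mitochondrially encoded genes were not among the genes tested.

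**Figure D4:**
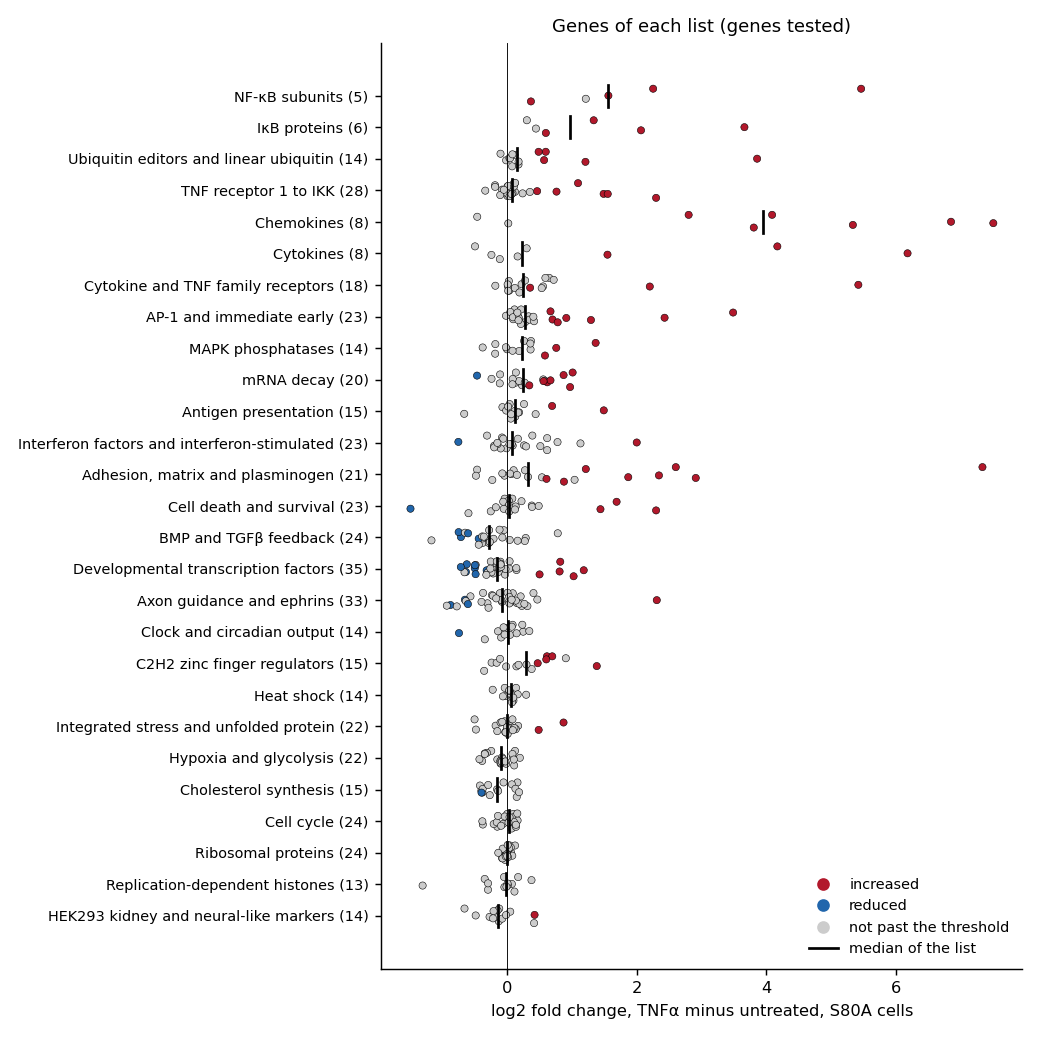
Log2 fold changes in S80A cells (x axis) of the genes of each list with more than 3 tested genes (y axis, number tested in brackets), with increased genes in red, reduced genes in blue and a line at the list's median. The highest list median, 3.95, is that of the chemokines, some of which passed the count filter only through treated samples. The lists of BMP and TGFβ feedback, developmental factors and axon guidance hold 4, 7 and 3 reduced genes.

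κB sequences in the promoters were searched as a description, since NF-κB acts through them. The RefSeq table of promoters (GRCh38.p14, 250 bases before to 50 after each gene's start) matched 10224 of the tested genes, 104 of the 139 increased and 33 of the 42 reduced ones. The sequence GGG, NN and TTTCC, where N is any base, was searched on either strand without a gap and was found in 16 of 47 promoters of the genes with rises of at least 1 (34.0%), in 7 of 57 of those with smaller rises (12.3%) and in 0 of 33 of the reduced genes, against 2.09% of all tested genes and 1.92% of all promoters of the table. The more permissive κB consensus was found in 51.1%, 28.1% and 6.06% of these groups and in 6.76% of all tested genes, and 116 promoters of all tested genes held both. These shares were not tested against each other. Matches for 7 genes of different roles and sizes of response are shown 5′ to 3′ on the gene's strand, with the match in capitals, to set the sequences beside the values above. For *TNFAIP3* the window holds a second match, 55 bases before the start. *VCAM1*, *NFKBIA* and *TNFAIP3* are shown as an adhesion gene and the main brakes, *NFKB1* as the edited gene, *TNFRSF9* and *IL32* for the low untreated counts, and *TRAF3* for a rise under 1.
VCAM1 (chr1:100719660-100719709, plus strand): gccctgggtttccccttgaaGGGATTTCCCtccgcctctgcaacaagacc
TNFRSF9 (chr1:7940884-7940933, minus strand): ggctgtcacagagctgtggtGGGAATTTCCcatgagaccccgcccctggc
IL32 (chr16:3065284-3065333, plus strand): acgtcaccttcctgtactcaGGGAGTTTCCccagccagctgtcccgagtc
TNFAIP3 (chr6:137867172-137867221, plus strand): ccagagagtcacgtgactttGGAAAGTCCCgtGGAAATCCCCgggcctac
NFKBIA (chr14:35404801-35404850, minus strand): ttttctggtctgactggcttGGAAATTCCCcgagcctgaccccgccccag
NFKB1 (chr4:102501290-102501339, plus strand): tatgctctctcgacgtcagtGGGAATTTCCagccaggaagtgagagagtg
TRAF3 (chr14:102777396-102777445, plus strand): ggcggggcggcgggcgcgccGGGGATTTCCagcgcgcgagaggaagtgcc
The matches in *TNFRSF9*, *IL32*, *NFKB1* and *TRAF3* were to the first sequence on the gene's strand, those in *TNFAIP3* and *NFKBIA* to its reverse complement, and that in *VCAM1* to the κB consensus alone. They began 62, 74, 99, 67, 81, 49 and 33 bases before the annotated starts, in the order shown. In *TNFRSF9* and *IL32* the κB consensus also matched the opposite strand 1 base further on. A match is not a test of binding.

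The annotated transcripts were compared as a description. The median transcript length was 3051 bases for 59 annotated genes with rises of at least 1, 3405 for 75 with smaller rises, 4076.5 for 38 reduced genes and 3339 over all tested genes. The median GC content of these transcripts was 50.1%, 54.3%, 44.0% and 48.5%. The reduced genes thus had the longest and the least GC-rich transcripts of these groups at the median, and their median deviation in untreated sample 2 was 0.049.

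In WT cells, whose samples are separate from those of the S80A cells, each of the 181 genes had a fold change of the same sign. Across all tested genes 51.2% had the same sign in both, and so did 845 of the 1199 genes with an unadjusted p-value under 0.05 that were not called in S80A cells. Of the 61 genes with larger rises 49 passed in WT cells, of the 78 small rises 30, and of the 42 falls 9, while 0.577% of all genes were increased and 0.111% reduced there. The median log2 fold changes in WT cells were 1.45 for the larger rises, 0.40 for the small ones and -0.38 for the small falls. The genes were chosen by their values in S80A cells, so these medians are no comparison of the genotypes.

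The difference in response was tested by the interaction of genotype and TNFα. By edgeR, DESeq2 and limma voom with sample weights 0 genes passed, and 520 genes had an unadjusted p-value under 0.05 by edgeR (3.62% of those tested), 464 by DESeq2 and 2808 by voom. The lowest adjusted p-value of the edgeR interaction test was 0.911. Of the 181 called genes 28 had an unadjusted p-value under 0.05. Among the named genes, *NFATC1* had a log2 fold change of 0.90 in S80A and 0.34 in WT cells (difference 0.55, standard error 0.15), and *TNFAIP3* 3.86 and 3.14 (difference 0.72, standard error 0.20). Neither difference passed after adjustment, and the genes that passed in S80A cells alone are not shown to respond differently from WT cells.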

How the data were processed

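RNA was measured in 12 samples of HEK293T cells, 3 in each of 4 groups, which were assigned by the sample titles. Reads of 75 bp from single-end runs were mapped by the authors with HISAT (GRCh38), and HTSeq-count gave the raw counts of each gene symbol that they deposited. Versions and counting options are not given in the sources used here. The authors also deposited lists of genes with fold changes and p-values from a DESeq2 pipeline, which were not used.

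Of 33121 genes, 28 were left out because their symbols, and their values in S80A untreated and treated sample 1, read as dates. Counts of the 14383 genes that passed filterByExpr (minimum count 10) were scaled by TMM and fitted in R 4.3.3 with edgeR 4.0.16, as 1 quasi-likelihood model in which each group has its own mean. Benjamini-Hochberg adjusted p-values under 0.05 were called, and standard errors are the log2 fold change divided by the square root of F. Normalised counts are counts scaled to the mean effective library size. Library totals ran from 15624878 to 20889577, and 3 counts over a group were taken as the floor. P-values measure only the spread between samples, which may be technical.

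The fit was tested on simulated data of the S80A comparison with 14253 genes and 200 of them changed. It recovered 52.2% of changes of 0.5 on the log2 scale, 92.5% of 1 and 100% of 2, and 6.86% of calls were false, so many changes near 0.5 would be missed.

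The gene lists and the rule for named genes were chosen with earlier results of these data known. Named were, among called genes whose groups do not overlap and with a mean of at least 1 CPM in the higher group, the 15 largest rises and 10 largest falls, then the 8 rises and 8 falls under 1 with the lowest p-values, called genes of the lists, *NFKB1* and *RELA*. A gene that met this rule is not reported here. Positions and transcripts came from GENCODE v44, which gave 12717 of the tested genes a transcript length and GC content, and promoters from RefSeq. Alternatives were DESeq2 1.42.0, limma 3.58.1 voom with sample weights, other scalings and filters, the replicate number as a block, the S80A samples alone, a log2 limit, and each sample left out. A correction of each library for length and GC content, and fits without both S80A samples numbered 2, were added after the data were seen. Tables and figures used Python 3.11.15.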

Additional observations from a re-analysis of the deposited data

How the results depend on the processing

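The direction of the 41 named genes did not reverse in any of the 1093 values computed for them under the alternatives. A reversal was hardly possible, since the treated and untreated samples of each of these genes do not overlap. Of the 1093 values 972 lay on the same side of the threshold. The other 121 fell short of it, and 27 of the 41 genes passed in each alternative that gave a value. The number of changed genes in S80A cells, 181 as reported, was 98 to 193 with 1 of the 12 samples left out, with 88 to 149 increased, 10 to 52 reduced and 48 to 126 small changes. In WT cells 65 to 145 genes were called with 1 sample left out. The interaction count was 0 in each alternative that held both genotypes and was run for it. Fits to the S80A samples alone gave 71 genes (65 increased, 6 reduced, 25 small), 68 with the replicate block (64, 4 and 19) and 86 without untreated sample 2 (73, 13 and 38), and fewer samples entered each of them. Voom with sample weights, which gave untreated sample 2 a weight of 0.235, called 404 (247 increased, 157 reduced, 315 small, and 807 in WT cells). DESeq2 called 258, with 78 reduced, 193 small and 161 in WT cells. The correction for length and GC content gave 288 (104 reduced, 228 small, 167 in WT cells), of which 167 were among the 181, and without untreated sample 2 in addition there were 68 reduced, 179 small and 187 in WT cells. Without both S80A samples numbered 2 there were 26 reduced and 72 small changes. A log2 limit of 1 in addition left 64 genes, 61 increased and 3 reduced. Where no cause is given here, the cause was not tested. The κB consensus in place of GGG, NN and TTTCC moved the share of increased genes with a match from 22.1% to 38.5%, and the standard deviation of untreated sample 2 was 0.337 in place of 0.410 over genes with at least 100 mean normalised counts.

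The replicate numbers were not taken as pairs, since the deviations from the group means correlated between -0.0989 and 0.495 for the 3 same-numbered pairs of S80A samples and not all were over 0.1. Over all 4 groups the 6 pairs of samples numbered 1 correlated at 0.116 to 0.495, those numbered 2 at -0.069 to 0.150 and those numbered 3 at -0.099 to 0.241, and the mean was 0.118 for same-numbered and -0.059 for other pairs. With the replicate block the test called 208 genes, and with the block and the correction 469 (269 increased, 200 reduced, 403 small, and 227 in WT cells). Not every sample correlated best with its own number, as untreated sample 2 did so with treated sample 3 (0.445).

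Depth limits genes with few reads in untreated cells, whose fold changes rest on 0 to 3 counts.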

Other observations

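Of the 181 called genes 87 were in none of the gene lists, and the following were picked after their values were seen. *PLA2G4C*, a cytosolic phospholipase A2, had 14.8, 10.8 and 12.2 normalised counts in untreated and 50.6, 43.7 and 45.1 in treated S80A samples (log2 1.87, edgeR adjusted p = 0.000105). *SGPP2*, a sphingosine-1-phosphate phosphatase, had 89.0, 74.5 and 75.5 and 446, 203 and 197 (log2 1.83, edgeR adjusted p = 0.00190), with treated sample 1 above the other two. *PTGES*, a prostaglandin E synthase, had 20.4, 8.41 and 9.55 and 67.8, 34.2 and 25.8 (log2 1.73, edgeR adjusted p = 0.0448, and 0.111 without untreated sample 2). *CALCB*, a calcitonin gene-related peptide, had 104, 177 and 150.2 and 644, 576 and 621 (log2 2.11, edgeR adjusted p = 1.02e-06). *SOX9*, a transcription factor, had 217, 204 and 212 and 326, 349 and 324 (log2 0.66, edgeR adjusted p = 0.000714).

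Among genes that did not pass, *EIF3CL* had a log2 fold change of 3.37 (edgeR adjusted p = 0.103). It had 38.9, 27.6 and 38.2 normalised counts in untreated samples, 482 and 572 in treated samples 1 and 2 and 48.3 in treated sample 3. It is a near-identical copy of *EIF3C*, so the assignment of its reads is uncertain.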
